A study of Homo sapiens with 93 samples.

Results

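The genes described here encode the constitutive 26S proteasome. They were chosen by name, as PSMA1 to PSMA7, PSMB1 to PSMB7, PSMC1 to PSMC6, PSMD1 to PSMD9 and PSMD11 to PSMD14, and all 33 were present among the 14000 features of a table of H3K36me3 read counts. H3K36me3 is histone H3 trimethylated on its lysine 36. The cells were 93 human lymphoblastoid lines, that is, B cells made to grow without limit by Epstein-Barr virus, and the assay was CUT&Tag. This assay uses an antibody to bring a transposase to the marked chromatin and sequences the DNA that it cuts. Each line gave 1 library, all were made with polyclonal antibodies from 100000 frozen cells and 14 PCR cycles, and no treatment is named in the labels, so the libraries form 1 group and the lines could only be compared through their spread. Line, culture and preparation cannot be told apart in such data, because cells were grown in 4 batches, in medium with 20% serum, and the labels do not say which line was in which batch.

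The 26S proteasome degrades proteins that carry ubiquitin chains. Its 20S core is a barrel of stacked rings: outer rings of alpha subunits (PSMA genes) gate the entry, and inner rings of beta subunits (PSMB genes) hold the proteolytic sites. The 19S regulatory particle that caps the barrel unfolds substrates with a ring of ATPases (PSMC genes) and binds and removes ubiquitin with non-ATPase subunits (PSMD genes). H3K36me3 is laid down by SETD2, which travels with elongating RNA polymerase II, so the mark covers the bodies of transcribed genes. The subunits are needed in fixed proportion, and their genes are scattered over many chromosomes.

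The 93 libraries held 2842955 to 24325746 counts each (median 14883653). The 33 genes together held between 0.154% and 0.228% of a library's counts, with a median of 0.19%. All 33 passed the filter of at least 10 counts in at least 47 libraries, as did 13915 of all 14000 features. The files do not pair identifiers with symbols. The 33 symbols came from the list that defines the set, and when they were sorted by their RefSeq positions (GRCh38.p14, chromosomes as text) all 33 fell in the order of their rows in the table. Other identifiers could not be paired, so B cell markers and other genes of the pathway, such as the immunoproteasome subunits and assembly factors, were not analysed here.

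All 33 genes carried reads in each of the 93 lines, and the lowest count of any gene in any line was 9. Levels are given as CPM, a gene's count relative to the library total, scaled between libraries with edgeR's TMM factors, and between genes only per kilobase of the RefSeq gene span, since the sources used here do not give the counted interval. On that scale most subunit genes were alike. The median over lines lay between 1.5 and 4 CPM per kb for 27 of the 33 genes, and the other 6 were PSMA1, PSMA6, PSMB4, PSMC3, PSMD2 and PSMD14. The medians of the 4 kinds of subunit were close, at 2.42 CPM per kb for the 7 alpha genes, 2.64 for the 7 beta genes, 2.60 for the 6 ATPase genes and 2.57 for the 13 non-ATPase genes.

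**Figure D1:**
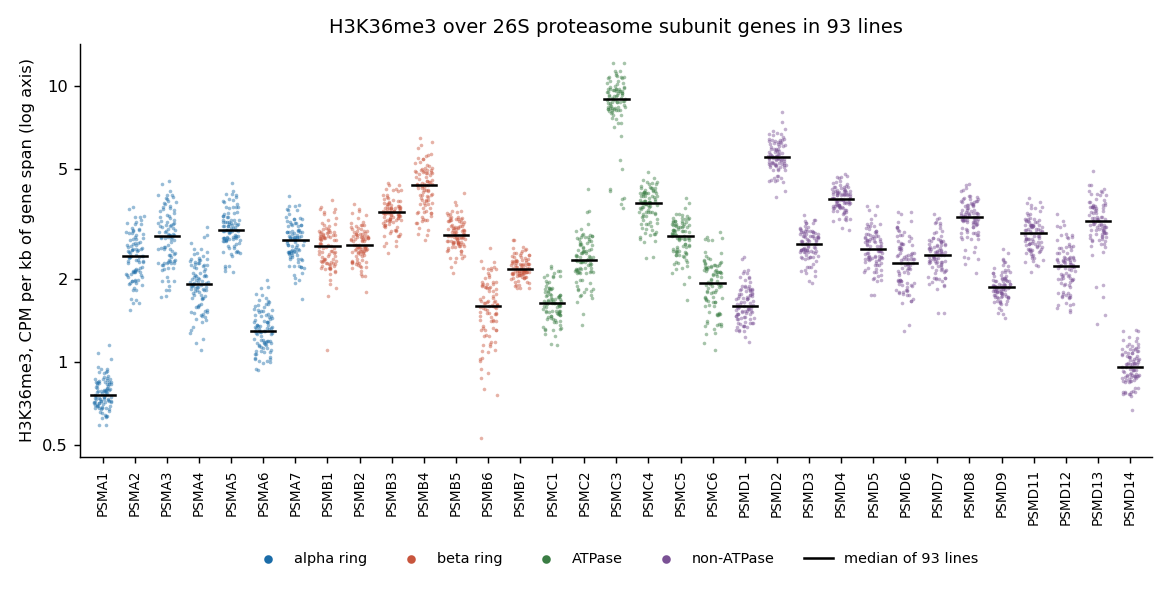
Each point is 1 of 93 lines and each black bar the median over lines, as H3K36me3 CPM per kb of RefSeq gene span on a log axis, for the 33 genes grouped by colour into alpha ring, beta ring, ATPase and non-ATPase. Most medians lie between 1.5 and 4 CPM per kb, PSMC3 is highest at 8.97 and PSMA1 lowest at 0.76.

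Among the alpha subunits, PSMA5 (ENSG00000143106, chr1:109399042-109426448) had the highest level per length, from 2.11 to 4.45 CPM per kb with a median of 3.01. PSMA3 (ENSG00000100567, chr14:58244843-58272004) ran from 1.71 to 4.51 CPM per kb with a median of 2.86. Their ranges over lines overlapped almost wholly. PSMA1 (ENSG00000129084) was lowest, from 0.59 to 1.15 CPM per kb with a median of 0.76. Its RefSeq span, chr11:14504876-14643662, is 139 kb, whereas the promoter that RefSeq lists for it lies inside that span at chr11:14520337-14520636. The same holds for PSMA6 (chr14:35278558-35317493), with a listed promoter at chr14:35292067-35292366 and a median of 1.3 CPM per kb. The levels of PSMA1 and PSMA6 per length therefore depend on which span was counted.

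The beta subunits with proteolytic activity differed in level. PSMB7, the trypsin-like subunit (ENSG00000136930, chr9:124353465-124415442), ran from 115 to 172 CPM with a median of 135, or 2.17 CPM per kb. PSMB5, the chymotrypsin-like subunit (chr14:23025851-23035220), ran from 19.6 to 38.2 CPM with a median of 27, or 2.88 CPM per kb. PSMB6, the caspase-like subunit (chr17:4796164-4798495), had the fewest reads of the 33, from 1.24 to 6.03 CPM with a median of 3.71, or 1.59 CPM per kb. Its span is 2.33 kb and its median count 55, the lowest of the set. The per-length order of these 3 genes, PSMB5 above PSMB7 above PSMB6, thus differed from their order in CPM, where the 62 kb PSMB7 was first. PSMB4, a subunit without proteolytic activity and of like span (2.37 kb), reached 4.36 CPM per kb at the median.

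In the ATPase ring, PSMC3 (ENSG00000165916, chr11:47418775-47426439) had the highest level per length of the whole set, from 3.61 to 12.1 CPM per kb with a median of 8.97. PSMC1 (chr14:90256553-90275429) was lowest, from 1.15 to 2.22 CPM per kb with a median of 1.64. These 2 ranges did not overlap. Among the non-ATPase genes PSMD2 (chr3:184299241-184309050), which with PSMD1 encodes the scaffolds of the base, had 3.96 to 8.02 CPM per kb with a median of 5.51. PSMD1 (chr2:231056867-231172827) had the highest CPM of the set, from 136 to 279 with a median of 185, but over its 116 kb only 1.6 CPM per kb. PSMD14, the deubiquitinase of the lid (chr2:161308425-161411717), also spans more than 100 kb and had 0.959 CPM per kb. Across the 33 genes, mean log2 CPM was higher in genes of longer span (Spearman rho = 0.844) and median CPM per kb lower (rho = -0.553). Both are descriptions over genes, which are not independent replicates and share all 93 libraries, and span enters the second value by construction.

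Against the other features of the table, which could be compared only per feature, the subunit genes lay near the middle. The median over the 33 genes of mean log2 CPM was 5.64, 0.23 above the median of all features tested, and 19 of 33 genes lay above that median. PSMD1 was at percentile 92.4 and PSMB6 at percentile 4.23. The level of a feature also depended on its place in the table. The 16 subunit genes in rows after 3200 up to 7700 had a median log2 CPM of 5.30, and all features there a median of 4.87. The 7 subunit genes in rows after 9600 up to 14000 had 5.68, against 5.79 for all features there. The rows of the 33 genes follow chromosome order. The 16 genes lie on chromosomes 12, 14 to 17 and 19, and the 7 on chromosomes 3, 6, 7 and 9. Differences in level between genes of these blocks therefore also hold a difference between blocks. Block and chromosome cannot be told apart here, and the part of either was not tested.

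The subunit genes varied little between lines. None of the 33 was called more variable than features of like level, where 18.4% of all features were called (edgeR's goodness-of-fit test against the trended dispersion, Benjamini-Hochberg adjusted p under 0.05). At an unadjusted p under 0.05 the count was again 0 of 33, against 21.8% of all features. DESeq2's dispersion outliers also included 0 of 33, but they were only 1.93% of all features, too small a share for 0 of 33 to show a difference. The smallest unadjusted p was 0.224, for PSMC3. The dispersion of 32 of 33 genes lay below the trend, and the log2 of own over trended dispersion had a median of -1.59. Of all features, 68.4% lay below the trend, with a median ratio of -0.52. The coefficient of variation over lines had a median of 0.153 in the 33 genes and of 0.205 in all features.

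**Figure D2:**
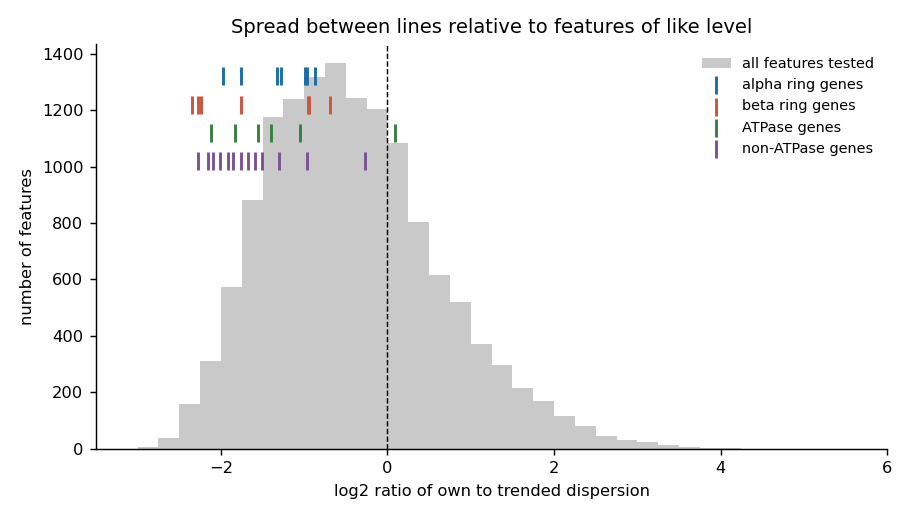
Grey bars count the 13915 features tested by the log2 ratio of their own to the trended dispersion, and coloured ticks, drawn at arbitrary heights, mark the 33 subunit genes by kind. The dashed line is the trend, and 32 of 33 ticks lie to its left.

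The steadiest gene was PSMB7, whose highest line had 1.5 times the CPM of its lowest and whose coefficient of variation was 0.0887. PSMD4, a ubiquitin receptor of the 19S particle (ENSG00000159352, chr1:151254734-151267479), ran from 38.4 to 61 CPM with a median of 49.7 and a coefficient of variation of 0.0957. PSMD9, an assembly chaperone, followed with 0.112, and PSMB3 and PSMD3, a beta and a lid subunit encoded on chromosome 17, had 0.118 each. Over the 33 genes the highest line exceeded the lowest by 1.5 to 4.87 times, with a median of 2.11. The upper end was PSMB6, with its low counts.

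Single lines set some of these ranges. In 17 of the 33 genes no line lay more than 1.5-fold below the gene's median, while PSMB6 had 9 such lines. PSMB1, a beta subunit (chr6:170535120-170553307), had 1 line at 20.1 CPM, while the next lowest was at 31.5, the median at 47.7 and the highest line at 70.2. PSMC2, an ATPase gene (chr7:103347524-103369395), had 1 line at 92.6 CPM above the next at 77.3, with a median of 51.1. Both gaps are of 1 library each and carry no replicate check.

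PSMC3 and PSMD13 were the genes nearest to or above the trend, with log2 ratios of 0.09 and -0.26. For PSMC3, 8 of 93 lines lay more than 1.5-fold below the median of 68.8 CPM, down to 27.6. For PSMD13, a lid subunit (chr11:236976-252984), 5 lines did so, down to 21.9 CPM from a median of 51.7. Only 2 lines were low for both genes. Together with PSMA1, these are the 3 subunit genes in rows after 1900 up to 3200 of the table, and all 3 lie on chromosome 11. In that stretch 46.9% of all features were called variable, against 12% to 18.9% in the other blocks of rows compared and 18.4% in the whole table. PSMC3 had r = 0.761 with the feature in the row before it and 0.406 with the one after, and PSMD13 had 0.667 and 0.473. PSMA1 had 0.687 and 0.657, yet its log2 ratio to the trend was -1.28. The part of the stretch in the spread of these genes was not tested.

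Part of the spread of the 33 genes followed depth and the dynamic range of the libraries. Dynamic range is the difference between the median log2 CPM of the top and the bottom 20% of features by level, and ran from 4.17 to 4.99 log2 units over libraries. With dynamic range, 31 of 33 subunit genes rose and none fell, where 44.7% of all features rose and 35.6% fell (edgeR's quasi-likelihood test, adjusted p under 0.05, both covariates in the model). The median slope was 0.87 log2 per log2 unit for the 33 genes and 0.18 for all features. PSMA3 had the steepest, 1.29 ± 0.12 (SE, n = 93 lines; adjusted p = 2.81e-17). PSMA3 ran from 46.5 to 123 CPM over lines, with a median of 77.8. PSMB6 (0.33 ± 0.24, adjusted p = 0.195) and PSMA1 (-0.03 ± 0.10, adjusted p = 0.802) did not pass the test. Dynamic range is itself computed from feature levels, and 4 of the subunit genes lie in the top 20% and 3 in the bottom 20% that define it.

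Slopes on library total went both ways. Per doubling of the total, 13 of 33 genes rose, where 29.3% of all features rose, and 10 fell, where 36.1% of all features fell. The other 10 did not pass the test. With library total as the only covariate the split turned, to 7 higher and 16 lower of 33, where 61.2% of all features were called in either direction. Shares of all features by direction were not computed for that fit, so the turn cannot be set beside them. Log2 library total and dynamic range were correlated over the 93 libraries (r = -0.495), and the part of this in the turn was not tested. PSMC3 rose most, by 0.29 ± 0.04 log2 per doubling (SE; adjusted p = 8.76e-11). PSMA1 and PSMD14 fell most, with slopes of -0.14 ± 0.02 each (adjusted p = 4.47e-08 and 6.43e-11). The direction went with gene span. Of the 11 genes under 12 kb, 8 rose and 0 fell, while of the 14 genes over 20 kb, 2 rose and 8 fell. The 8 genes from 12 to 20 kb were mixed: 3 rose and 2 fell, with slopes from -0.11 to 0.16. Over the 33 genes, Spearman's rho between span and slope was -0.695, a description over genes that share their libraries. PSMA1 and PSMA6 count here among the long genes that fell. The promoters listed for both lie inside their RefSeq spans, so their place by span is uncertain. PSMB7 and PSMD11, a lid subunit, were the 2 long genes that rose, with slopes of 0.06 and 0.04. The slope on dynamic range had no such order (rho = 0.0291).

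**Figure D3:**
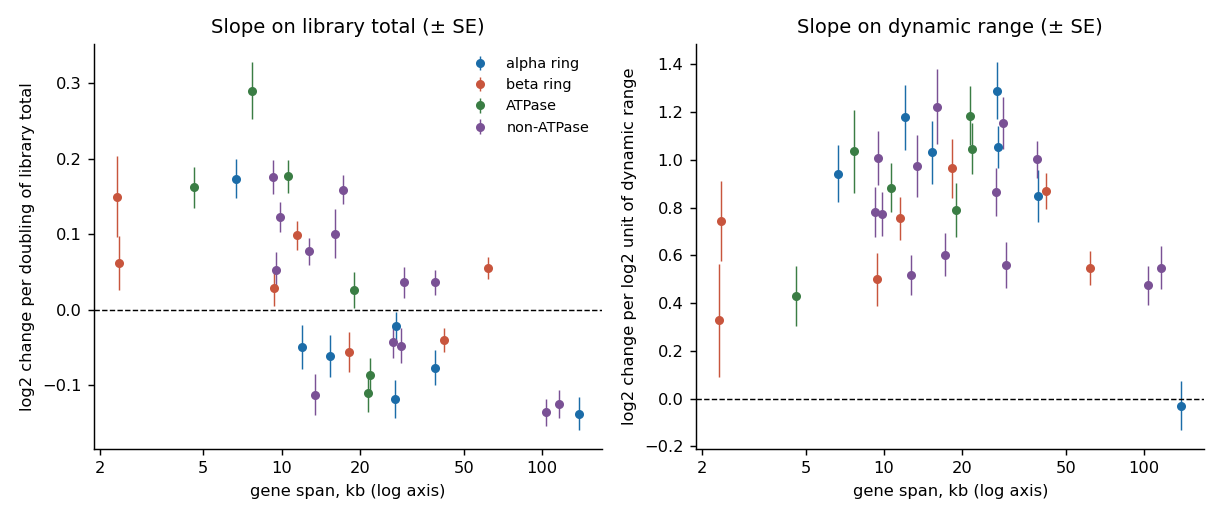
Each point is 1 of the 33 genes with the SE of its slope, plotted against gene span in kb on a log axis, for library total on the left and dynamic range on the right. On the left, genes under 12 kb lie above 0 and the 3 genes with RefSeq spans over 100 kb below it. PSMA1, whose span is uncertain, is 1 of these 3. On the right all genes but PSMA1 lie above 0.

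With both covariates removed, the levels of the subunit genes remained positively correlated over lines. The mean Pearson correlation over the 527 pairs at least 20 rows apart was 0.189, against 0.00725 over all pairs of features, and it was positive in 88.4% of the pairs, against 50.8%. These correlations are descriptions over 93 lines; the points share library depth and preparation, and the mean was small. Pairs above 0.5 were 20 of 527 (3.80%), against 1.82% of all pairs. In the shift of the whole set, a line's mean over the 33 genes ran from -0.22 to 0.14 log2, with an SD of 0.08. That is a 1.29-fold difference between the highest and the lowest line. Both of these lines had shallow libraries, of 4051901 and 6186586 counts against a median of 14883653. The part of depth in this difference was not tested. Single genes had residual SDs of 0.10 (PSMB7) to 0.36 (PSMB6) log2.

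**Figure D4:**
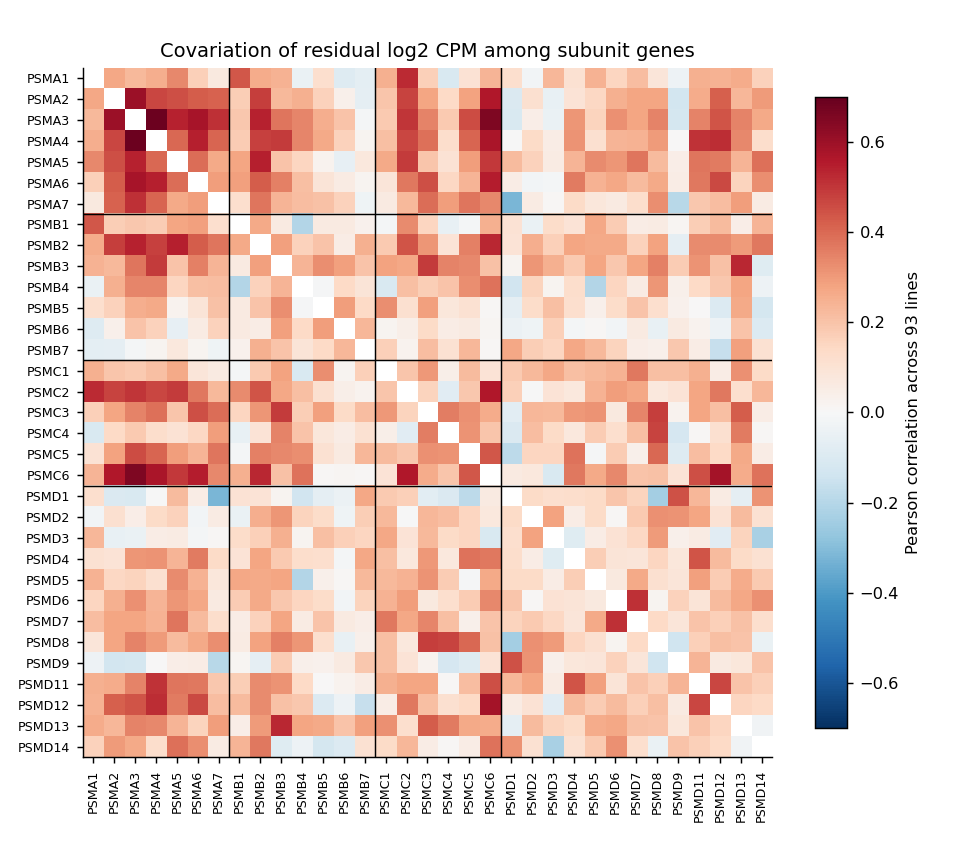
Pearson correlation across 93 lines of log2 CPM, with log2 library total and dynamic range removed, for each pair of the 33 genes, from blue (negative) to red (positive). Black lines separate alpha ring, beta ring, ATPase and non-ATPase genes, and the highest value is r = 0.687 for PSMA3 with PSMA4.

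The alpha ring genes were the most alike. Their mean correlation over 21 pairs was 0.395, and all 21 were positive, from 0.0707 up. The mean within the ATPase ring was 0.237 (15 pairs), within the beta ring 0.15 (21 pairs) and within the non-ATPase genes 0.148 (78 pairs). For the beta and non-ATPase genes, pairs inside the group were no more alike than pairs with other subunits, which had means of 0.16 and 0.165. PSMA3 and PSMA4 (chr15:78540405-78552417) had the highest correlation of all pairs, r = 0.687 (rho = 0.624). PSMC6, an ATPase gene (chr14:52707200-52728590), was in 7 of the 20 pairs above 0.5. Among the alpha genes it had r = 0.656 to PSMA3, 28 rows away in the table, and 0.57 to PSMA4. It had 0.558 to PSMA2 on another chromosome, but only 0.338 to PSMA7 and 0.24 to PSMA1. Genes of other kinds were as close to it, with 0.58 for PSMD12, 0.558 for PSMC2 and 0.526 for PSMB2. An alpha gene was in 15 of these 20. Outside the alpha ring and PSMC6, the pairs were PSMB3 with PSMD13 (r = 0.525) and PSMD6 with PSMD7 (r = 0.51), both subunits of the lid.

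Taken by line, the mean of the alpha genes and that of the ATPase genes had r = 0.728 (rho = 0.725, n = 93), with 0.754 over the 46 shallower libraries and 0.693 over the 47 deeper. Alpha and beta means had r = 0.49 (rho = 0.449), with 0.508 and 0.457. The ATPase mean had the widest range over lines, from -0.36 to 0.33 log2. Each end was 1 line with a shallow library, of 6186586 and 5015189 counts against a median of 14883653. The beta mean ran from -0.29 to 0.22, the alpha mean from -0.28 to 0.22 and the non-ATPase mean from -0.19 to 0.14. By SD over lines the alpha mean was widest, with 0.115, then the ATPase mean with 0.111. The beta mean had 0.0964 and the non-ATPase mean, over 13 genes rather than 6 or 7, had 0.0674. The part of depth and gene number in these spreads was not tested.

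Some subunit genes stood outside this pattern. The correlation of a gene with the mean of the other 32 had a median of 0.401 and ran from 0.118 to 0.682. PSMA3 was highest, followed by PSMA4 (0.667), PSMC6 (0.652) and PSMB2, a beta subunit (chr1:35599541-35641526; 0.633). PSMD1 was lowest, followed by PSMD9 (0.128) and PSMB6 (0.139). PSMD9 encodes an assembly chaperone of the ATPase ring and not a subunit of the finished particle. The other such chaperone in the set, PSMD5, had 0.359. The lowest pair was PSMA7 with PSMD1, r = -0.319 (rho = -0.308).

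Proximity in the table also went with likeness. The mean correlation of the 33 genes with the features in the rows next to them was 0.243 ± 0.256 (SD over 66 neighbours), against 0.277 ± 0.289 between adjacent rows in the whole table. For 21 of the 33 genes this mean was above the gene's mean with the other subunits. PSMA6 had r = 0.71 with the row before it, while PSMA4 had -0.298 and 0.0362 with its 2 neighbours.

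Features outside the set followed it too. Of 13882 other features, 1815 (13.1%) had a correlation with the mean of the 33 genes above 0.401, the median that the subunit genes had with each other's mean, and 79 lay above the highest subunit gene. Of the features at least 20 rows from any subunit gene, ENSG00000197111.16 (r = 0.802, rho = 0.818) and ENSG00000108424.10 (r = 0.779, rho = 0.77) were most like the mean, over the 93 lines. Their names are not paired in the files. The first principal component of the residual levels, with 16.1% of the variance, had r = -0.559 with the mean of the subunit genes. As an alternative, 5 or 10 principal components of the unadjusted log2 CPM were removed in place of library total and dynamic range. The mean correlation of the subunit genes was 0.402 with nothing removed, 0.128 with 5 components removed and 0.0647 with 10. For the alpha genes it was 0.559, 0.144 and 0.0223, and with 10 components removed they were less alike than the whole set. With library total and dynamic range removed instead, the means were 0.189 for the set and 0.395 for the alpha genes. The set had 0.17 in the 46 shallower libraries alone and 0.115 in the 47 deeper ones. All pairs of features had 0.0044 and 0.0042 there.

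**Figure D5:**
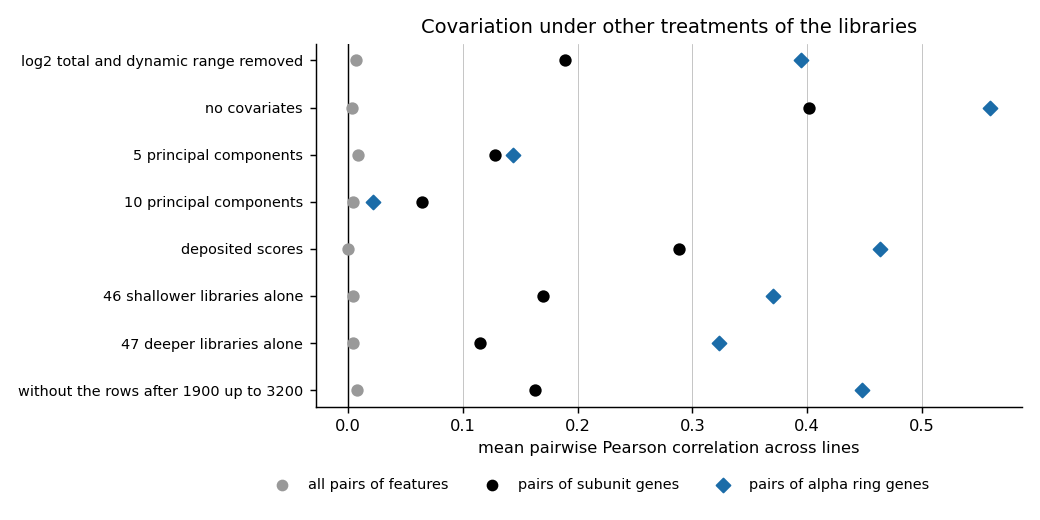
Mean pairwise correlation across lines for all pairs of features (grey), pairs of subunit genes (black) and pairs of alpha ring genes (blue diamonds), by row for 8 ways of treating the libraries. Both the black points and the diamonds lie right of the grey ones in each row, and with 10 principal components removed the diamond falls to 0.0223, left of the black point.

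The RefSeq promoters of the subunit genes, from 250 bases before to 50 after the gene start, were searched for 4 motifs of known regulators. The promoter list used here (GRCh38.p14) covers 28 of the 33 genes and has no entry for PSMA7, PSMB1, PSMB6, PSMB7 and PSMD4. The motifs were searched on both strands. TGACNNNGC is the core of the antioxidant response element, to which NFE2L1, the factor that raises proteasome genes when proteasome activity is low, is known to bind. It was in 9 of 28 genes (26.5% of their 34 promoters), against 13.3% of all 35116 promoters. CCAAT, the box bound by NFY, was in 15 of 28 genes (44.1% of promoters), against 34.6%. CCGGAAG, a core of ETS factors, was in 11 (32.4%), against 10.3%. The motif of nuclear respiratory factor 1 was in 5 genes (17.9% of the 28), against 6.98% of all genes. By promoter the shares were 20.6% and 5.78%, but overlapping promoters of PSMA4 and of PSMA6 count the same match more than once. These are shares of letters in a window of sequence and no evidence of binding.

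The windows that hold a match to the antioxidant response core before the start of 5 genes are shown in gene orientation with 9 bases on either side. The core was chosen because it belongs to the element best known for this complex. Matches inside the gene spans, in PSMA4, PSMC4, PSMC5 and PSMD1 and a further match in PSMD3, are not shown. Capitals mark the motif. PSMD9 holds it on both strands, and its first match directly follows a CCGGAAG match on the opposite strand, with no base shared.
PSMB3, chr17:38752628-38752654, + strand: cctccgtttTGACTTTGCaaccaaact
PSMD3, chr17:39980761-39980787, + strand: cccctttgtTGACTCGGCcatcggcct
PSMD5, chr9:120843039-120843065, - strand: ggctacagtTGACACGGCcctaacgga
PSMD9, chr12:121888679-121888705, + strand: ggcttccggTGACCCAGCtccgcccta
PSMD9, chr12:121888632-121888658, + strand: gctactcctGCCGGGTCAccacaggcg
PSMD12, chr17:67366725-67366751, - strand: gacaaaaccTGACGCTGCaggctggag

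PSMA2, PSMA3, PSMA4 and PSMA5 hold CCAAT boxes, and PSMC6 a CCGGAAG match. Those outside the gene spans are shown for the alpha ring, the kind of subunit with the highest mean correlation, and for PSMC6, with capitals for the motif. A second box of PSMA5 and the boxes of other subunit genes, PSMB3 and PSMC3 among them, are not shown. Both strands are represented, so ATTGG is the same box read from the other strand.
PSMA2, chr7:42932245-42932267, - strand: gactctcctCCAATcatagagag
PSMA3, chr14:58244816-58244838, + strand: gcagttcagCCAATgagcgggcc
PSMA3, chr14:58244799-58244821, + strand: aaaaaggttATTGGttggcagtt
PSMA5, chr1:109426489-109426511, - strand: tactaccagCCAATaggaagcag
PSMC6, chr14:52707084-52707108, + strand: cggggccaaCCGGAAGgggagggct

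The 9 genes with the antioxidant response core had a mean pairwise correlation of 0.137 (36 pairs) and the 19 without it 0.248. The 15 genes with a CCAAT box had 0.262 (105 pairs) and the 13 without it 0.167. For CCGGAAG the means were 0.213 with and 0.207 without. The 5 genes with the nuclear respiratory factor 1 motif had 0.29 (10 pairs) and the 23 without it 0.204. The differences were not tested, and the CCAAT genes include 4 of the alpha genes.

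The authors' second table, of normal scores for the same features, followed the counts. Per gene, Spearman's rho between score and log2 CPM over the 93 lines ran from 0.942 for PSMB7 to 0.987 for PSMD12, with a median of 0.978 for the 33 genes and 0.981 for all features. The pairwise correlation of the scores among subunit genes had a mean of 0.288, between the 0.189 with covariates removed and the 0.402 without.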

How the data were processed

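The deposited count table holds whole-number read counts of 14000 features in 93 libraries, and the deposited table of normal scores holds the same features, with identical sorted scores in all 93 libraries. HISAT2 2.2.1, bedtools and hg38 are named, per the submitters' processing notes, without role or order; counted interval, read filters and transform are not stated there. Subunit genes and lists were chosen with earlier results of these data known. Counts were tested as deposited with edgeR 4.0.16 in R 4.3.3, over 13915 features, adjusted for dynamic range and log2 library total, with Benjamini-Hochberg adjustment over all features. Log2 CPM used a prior count of 2. Correlations used residual log2 CPM. The 33 subunit genes are all named; features most like their mean were taken at least 20 rows from any of them. p-values measure the spread between lines, each with 1 library. PCR reads are not independent molecules. Alternatives included DESeq2 1.42.0, other covariates, depth classes and the scores. Genes other than the 33 could not be paired with symbols, so the list of other proteasome genes and the cell type markers were not used. The fits were tested on simulated data.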

Additional observations from a re-analysis of the deposited data

How the results depend on the processing

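The 45 alternative values comprise 41 that kept to the main value (counts within 1.5 times, other values within 1 SD over lines or genes) and 4 that moved, all 4 for the mean correlation among the 33 genes. This rule was wide for row neighbours, where the SD was 0.219 and the main value 0.243. For the depth and dynamic range counts it compared totals and not directions. That mean, 0.189, was 0.402 with no covariates, 0.0647 without 10 principal components, 0.288 from the deposited scores and 0.115 in the 47 deeper libraries alone; the cause was not tested. The count of variable subunit genes was 0 in all 9 alternatives, among them the DESeq2 outliers, which took in only 1.93% of all features. In the fits by depth, the calls among the 33 genes were 7 higher and 16 lower with log2 total alone (61.2% of all features called in either direction), against 13 and 10 (65.4%), and 10 and 12 of the 30 genes left without the rows after 1900 up to 3200 (66.6%). The level difference to all features was 0.37 against features of the same block of the table, an alternative chosen after seeing the data, as were the block covariate and leaving out 1 kind of subunit. Length scaling of all features and the list of other proteasome genes were not run, since identifiers could not be paired. No paired analysis was possible because all libraries form 1 group. Depth limits PSMB6 most, with a median of 55 counts and a lowest of 9.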
